A study of Bos taurus with 8 samples.

Results

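The clustered histone genes were followed in bovine endometrium through 48 of the 43653 noncontrol probes of an Agilent array. A probe was taken when its gene name began with HIST and a number, which gave 27 probes, or when only its description named a histone cluster, which gave 21 more. The probes carried 35 of the 25325 gene names on the array, and 8 of these had several probes. By histone type there were 6 probes for H1, 15 for H2A, 25 for H2B, 1 for H3 and 1 for H4. The tissue was biopsied from 8 cows on day 7, with standing estrus as day 0, in the horn ipsilateral to the corpus luteum. Every horn had been injected with 25 mL of fluid on day 1; this carried no methylglyoxal (0 mM) for 4 cows and 5 mM methylglyoxal for 4. Methylglyoxal is a reactive dicarbonyl that arises from glycolysis and glycates proteins. Each biopsy was a different cow on its own one-colour array, so both groups had undergone infusion and differed in the labels by methylglyoxal alone. Breed and age were not given in the sources used here.

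Histones package DNA into nucleosomes: H2A, H2B, H3 and H4 form the protein core, and H1 binds the DNA that links one core to the next. Most clustered histone genes are transcribed in S phase, when new DNA has to be packaged, and their mRNAs end in a conserved stem-loop bound by SLBP in place of a poly(A) tail. Some of these genes also give polyadenylated transcripts, and labelling primed with oligo-dT copies chiefly such RNA. Replacement histones, by contrast, come from single genes outside the clusters, mostly as polyadenylated mRNAs made throughout the cell cycle.

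The probe sequences are shown first because several H2B probes share long runs of bases; the counts below take such probes one by one, with counts for 1 probe a family beside them. The runs were compared after the values had been seen, and the resulting families are a description. With a shared run of at least 15 bases between loci as the limit, 13 probes, all H2B, fell into 3 families. In the first, 4 of the loci lie on chromosomes 1, 6, 9 and 29 and the fifth on chromosome 23. Capitals mark the longest run each probe shares with another of its family, and the longest was 31 bases, between LOC512612 and one of the probes of LOC523702.
LOC512612: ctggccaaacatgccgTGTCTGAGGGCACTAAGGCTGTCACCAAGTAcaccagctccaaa
LOC523702: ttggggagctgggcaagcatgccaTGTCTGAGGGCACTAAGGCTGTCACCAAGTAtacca
LOC786787: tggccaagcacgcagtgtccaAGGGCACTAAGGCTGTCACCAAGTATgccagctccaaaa
ENSBTAT00000055074: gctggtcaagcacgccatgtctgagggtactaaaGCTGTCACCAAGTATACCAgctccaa
LOC100138359: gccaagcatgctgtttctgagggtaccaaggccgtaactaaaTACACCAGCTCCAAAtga

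Another family, called the third, is shown because it joins a named gene of chromosome 3, HIST2H2BE, to loci on chromosomes 18 and 5. Its longest shared run was 26 bases, again in capitals.
HIST2H2BE: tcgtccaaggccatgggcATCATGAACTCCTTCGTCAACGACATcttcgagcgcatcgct
LOC526915: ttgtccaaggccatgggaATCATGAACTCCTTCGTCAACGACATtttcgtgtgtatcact
LOC617908: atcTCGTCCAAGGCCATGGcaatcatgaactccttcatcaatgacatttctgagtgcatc

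The second family held probes of LOC617043, LOC521525, LOC526064 and LOC520044 and the other probe of LOC523702, with a longest shared run of 24 bases. Cross-hybridisation between these loci was not tested.

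The histone stem-loop was read from a HIST1H2AG probe as its only run of a 6-base stem, a 4-base loop and the reverse complement of the stem, and searched as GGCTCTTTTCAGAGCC on both strands. On the strand as printed it was in 2 of the 43653 probes, 0.00458% of them, of which 1 was a member, and the reverse complement was in 0. Its first 8 letters, GGCTCTTT, were in 58 probes (0.133%), of which 3 were members, and the reverse complement of these letters was in 76 probes, of which 1 was a member. Stretches of 30 bases from the 3 members are shown because they show how far each probe reaches into the stem-loop, whose letters are in capitals.
HIST1H2AG: tcaaaccaaaGGCTCTTTTCAGAGCCactt
HIST1H2BN: ccgttcttagaccaaccacaaaGGCTCTTT
HIST1H2AD: tcaaacctgttcaaaccaaaaGGCTCTTTT

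On the 8 arrays between 68.3% and 73.1% of the noncontrol probes were well above background, no spot was saturated, and the 75th percentile of the intensities lay between 1032 and 1456. One array stood apart in the markers of the tissue. In 5 mM replicate 1 the mean of 10 epithelial markers was -3.38 on a log2 scale centred per probe, against 0.28 to 0.86 in the other cows, and that of 11 smooth muscle markers was 2.69. The smooth muscle mean was also high in 0 mM replicate 1 (1.32) and 5 mM replicate 3 (1.74), against -1.66 to -0.88 in the other 5 cows. Of the 6 genes of uterine identity 5 could be tested.

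Of the 48 histone probes, 39 were tested because Feature Extraction had marked them well above background on 4 or more arrays, and 35 of these carried the mark on all 8. The other 9 carried it on no array or on 1: LOC783927 of H1, HIST1H2AC, LOC787441 and the second HIST1H2AD probe of H2A, HIST1H2BA, LOC526064, LOC616267 and the third HIST1H2BD probe of H2B, and LOC781434, the single H4 probe. H4 therefore has no tested value here, and H3 rests on 1 probe. HIST1H2AC was well above background in 5 mM replicate 2 alone, at -5.08. Its mean was higher after methylglyoxal, -8.08 at 0 mM and -6.67 at 5 mM, on signals mostly not well above background.

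Levels below are log2 processed intensities relative to the 75th percentile of the array, and a difference is the mean of the 5 mM cows minus that of the 0 mM cows with its standard error. No histone probe passed limma's test after Benjamini-Hochberg adjustment over all 31108 probes tested, and no other probe did (0.0% called, smallest adjusted p = 0.913). At an unadjusted p under 0.05 were 6 histone probes of 39, all lower after methylglyoxal, where 1.91% of all tested probes reached that limit and 0.955% did so lower. The groups did not overlap in 5 histone probes, again all lower, where 0.524% of all tested probes were lower without overlap. One probe of both counts, HIST1H2AH, had passed the filter through the 0 mM cows alone, and its signal after methylglyoxal has only a bound. Among the 38 probes well above background on 1 or more arrays of each group, a set chosen after the data were seen, 5 reached the unadjusted limit and 4 had groups apart, all lower, beside 0.907% and 0.483% of all such probes on the array. On probes with the mark on all 8 arrays, the refitted test gave 5 of 35, beside 2.06% of all, and these held 4 of the 6. Without a filter the test gave 8 of 48, of which 7 were lower, beside 2.44% of all. In sign alone 31 of the 39 were lower and 8 higher, beside 46.9% of all probes lower. Over the 38 probes 30 were lower and the differences ran from -1.09 to 0.41, with a median of -0.29. Over all 39 the median was -0.30, also with HIST1H2AH at its bound, beside 0.021 over all tested probes and a median standard error of 0.24. A difference was larger than its own standard error in 29 of the 39 probes and larger than 2 standard errors in 9. These counts include HIST1H2AH and probes that share bases. They were not made over all tested probes, so they cannot be read as particular to the histone probes. Taking 1 probe for each gene name left 23 of 28 lower and a median of -0.31. Taking 1 probe for each sequence family, an alternative chosen after seeing the data, left 22 of 30 lower, 4 at the unadjusted limit, 3 with groups apart and a median of -0.26. This count kept the overlapping probes of HIST1H2AG and of HIST1H1D, and the count by gene name kept the families. Neither is therefore free of shared bases. In a bulk biopsy, fewer cells of a type and less RNA per cell cannot be told apart.

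The 6 probes with an unadjusted p under 0.05 belonged to HIST1H2AG, HIST1H2AH, HIST1H2BN, HIST2H2BE, LOC523702 and LOC617908. Their number depended on single cows. Leaving out 0 mM replicate 2 gave 2 such probes, where 1.29% of all tested probes then reached the limit. Leaving out 5 mM replicate 3 gave 3, beside 1.21% of all, and leaving out 5 mM replicate 4 gave 10, beside 3.42% of all. Without 5 mM replicate 1, the array poor in epithelial markers, 32 of 39 probes were lower, the median was -0.27 and 4 probes reached the unadjusted limit, beside 1.94% of all. With the slide as a block there were 7, beside 3.30% of all, and these held 4 of the 6, without HIST1H2BN and HIST2H2BE. With normexp background correction the median was -0.18 and 2 probes reached the limit, HIST2H2BE and LOC523702, beside 1.69% of all. Within the array slides, each of which held both groups, the median was -0.37, -0.25 and -0.38.

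**Figure D1:**
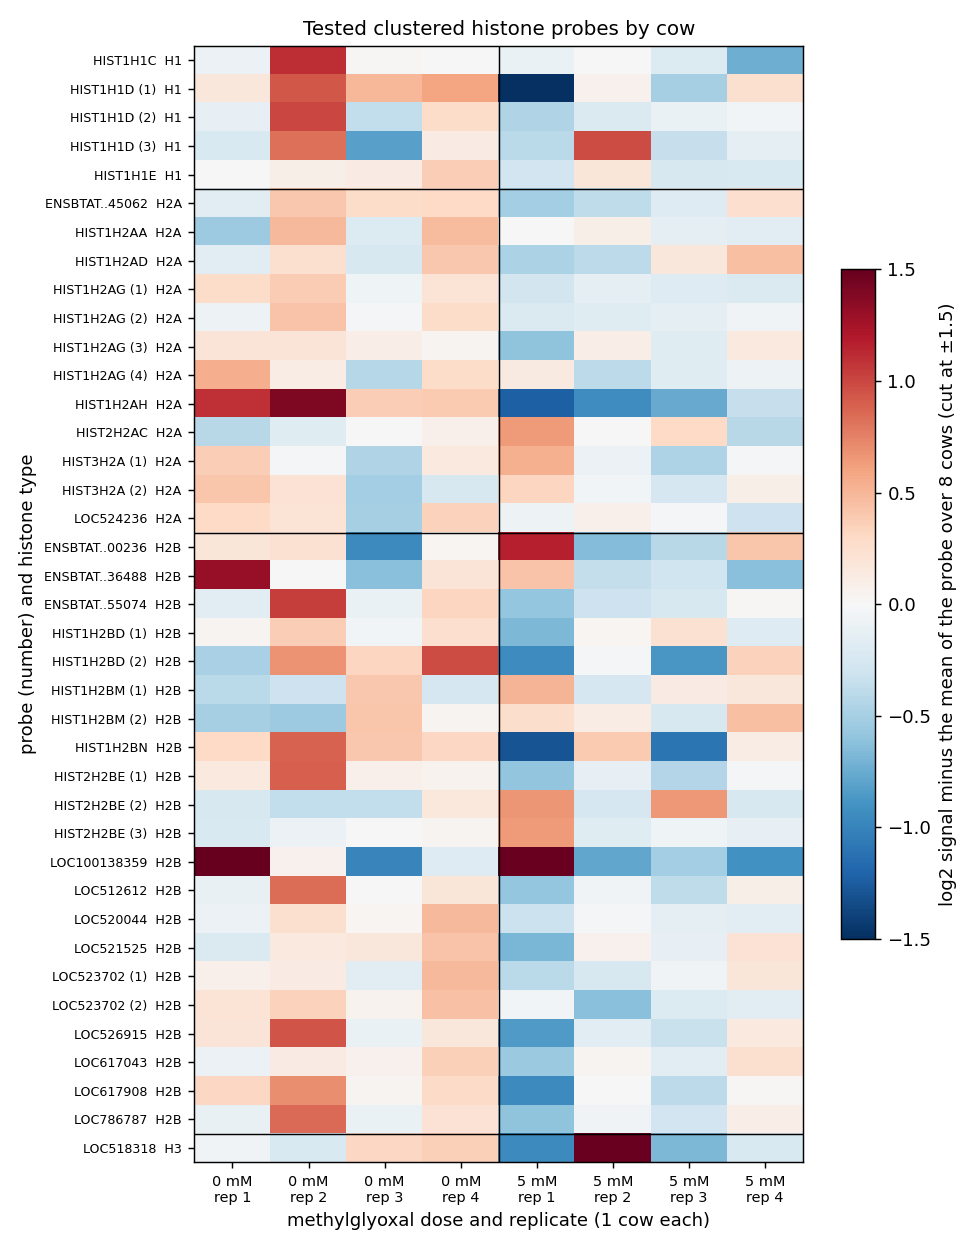
Each row is 1 of the 39 tested histone probes, ordered by histone type, and each column 1 cow; colour gives the log2 signal minus the mean of the probe over the 8 cows, with the scale ending at ±1.5. The column of 0 mM replicate 2 is mostly red and that of 5 mM replicate 1 mostly blue, and LOC100138359 is high in replicate 1 of both groups.

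**Figure D2:**
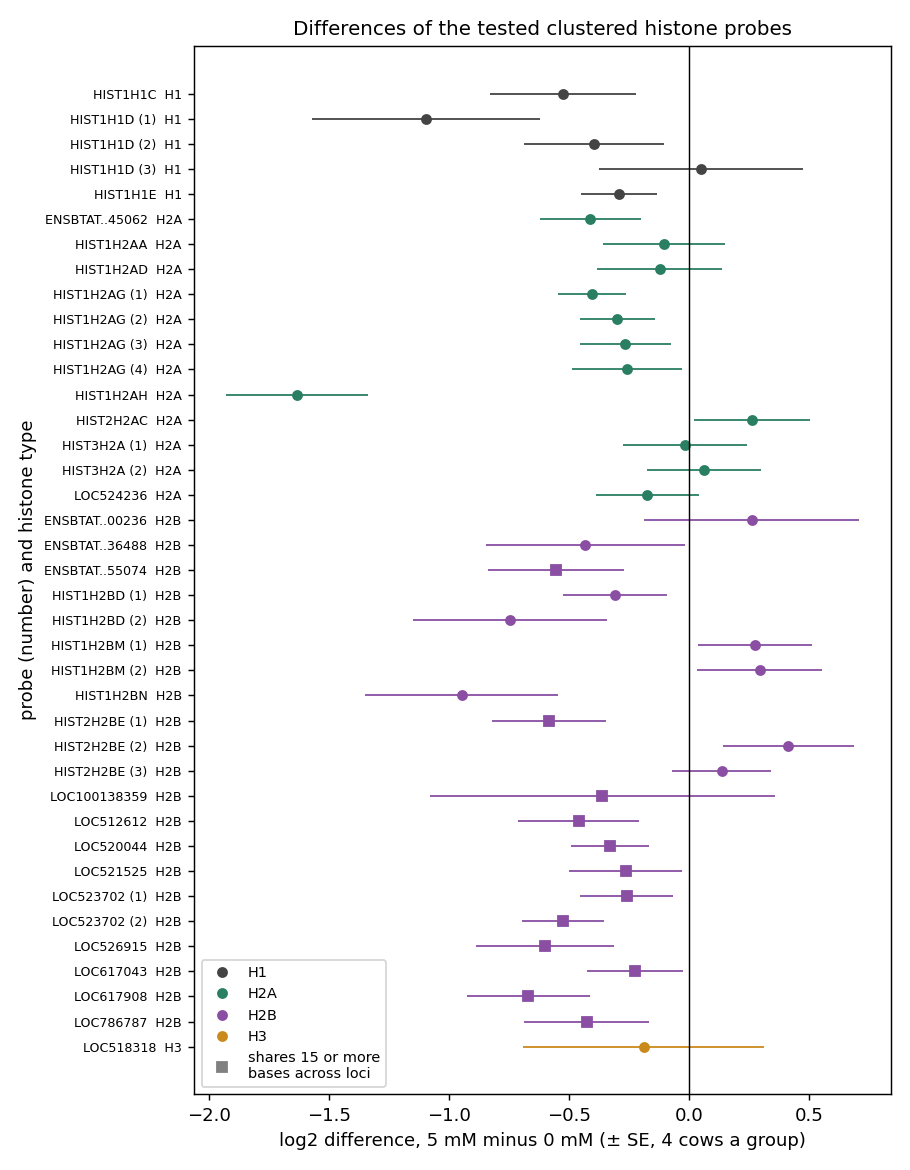
Points are the log2 differences (5 mM minus 0 mM) of the 39 tested histone probes with bars of ± 1 standard error, 4 cows a group, coloured by histone type; squares are the H2B probes that share 15 or more bases across loci. All 12 squares lie below 0, and the H2B circles lie on both sides; the point of HIST1H2AH, not well above background at 5 mM, is not a measured difference.

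The linker histone H1 had 5 tested probes, 4 of them lower, with a median of -0.40. The largest difference was in HIST1H1D (current symbol H1-3), at chr23:31747647-31747703. This probe read -1.63, -0.88, -1.32 and -1.21 in the 0 mM cows and -3.81, -1.74, -2.31 and -1.56 in the 5 mM cows. The groups overlapped through the highest 5 mM and the lowest 0 mM cow, and 5 mM replicate 1 was far the lowest. The difference was -1.09 ± 0.48 (unadjusted p = 0.0501, adjusted p = 0.913), and -0.61 without that cow. Both other HIST1H1D probes lie 2.819 and 2.826 kb further along, overlap each other by 53 bases, and differed by -0.40 ± 0.29 (-0.13 without 0 mM replicate 2) and 0.051 ± 0.42. HIST1H1E (H1-12), at chr23:31887470-31887529, read -2.72, -2.63, -2.60 and -2.36 against -3.01, -2.55, -2.96 and -2.96. Its 5 mM cows lay below all 0 mM cows except for replicate 2, with a difference of -0.29 ± 0.16 (unadjusted p = 0.106, adjusted p = 0.913). HIST1H1C (H1-2) differed by -0.52 ± 0.30, by -0.24 without 0 mM replicate 2 and by -0.20 with normexp background correction.

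Of the H2A probes 12 were tested, and 10 of them were lower, with a median of -0.21, or 9 of 11 and -0.17 without HIST1H2AH. H2A pairs with H2B in the nucleosome core. HIST1H2AH (H2AC12), at chr23:31366325-31366384, read -5.39, -5.08, -6.11 and -6.08 in the 0 mM cows and -7.71, -7.41, -7.24 and -6.83 in the 5 mM cows. It was well above background on 4 of 4 arrays of 0 mM and 0 of 4 of 5 mM. Since the probe was not well above background in any 5 mM cow, the fold has only a bound. On these intensities the group mean of HIST1H2AH was at least 1.74-fold lower. The bound sets the 0 mM mean of -5.67 ± 0.52 (SD, n = 4) against the lowest signal well above background on each 5 mM array. Where the signal of the probe was higher, that signal was used. The bound carries no standard error. The measured 5 mM mean was -7.30 ± 0.37 (SD, n = 4), and limma's adjusted p was 0.913. With normexp background correction the difference was -0.21, smaller than the bound, so the bound holds only for the background subtraction used here.

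HIST1H2AG (H2AC14) had 4 probes within 148 bases of one another by their starts, of which 3 share up to 54 bases. The probe at chr23:31057831-31057890 read 1.49, 1.59, 1.14 and 1.42 in the 0 mM cows and 0.94, 1.08, 1.02 and 1.00 in the 5 mM cows. Every 5 mM cow was below every 0 mM cow, and the 5 mM cows lay close together. The difference was -0.40 ± 0.14 (unadjusted p = 0.0206, adjusted p = 0.913), a ratio of 0.756. The next pair of probes differed by -0.30 ± 0.16 and -0.27 ± 0.19. The probe over the stem-loop, which shares no run with the other 3 that reached the limit, read -1.21, -1.65, -2.18 and -1.49 against -1.63, -2.15, -1.94 and -1.84. It had overlapping groups and a difference of -0.26 ± 0.23. All 4 probes of this gene were thus lower, the overlapping ones not being separate evidence. In the remaining H2A probes the groups overlapped, with differences from -0.41 ± 0.21 in ENSBTAT00000045062 to 0.26 ± 0.24 in HIST2H2AC (H2AC20). HIST3H2A (H2AC25), on chromosome 7, was at -0.016 ± 0.26 and 0.062 ± 0.24.

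H2B gave 21 tested probes, 16 lower, with a median of -0.36. The 12 tested probes of the sequence families were all lower, with medians of -0.46 in the first family, -0.26 in the second and -0.60 in the third. Of the 9 tested H2B probes outside the families 4 were lower, with a median of 0.14. The direction of the families is that of probes which share bases, so that 12 is not a count of independent loci.

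In the first family, LOC523702 at chr9:8762400-8762459 read -1.59, -1.44, -1.74 and -1.35 in the 0 mM cows and -1.84, -2.42, -2.00 and -1.97 in the 5 mM cows. The groups did not overlap, and the difference was -0.53 ± 0.17 (unadjusted p = 0.0155, adjusted p = 0.913). The other probe of LOC523702 starts 49 bases earlier, belongs to the second family and differed by -0.26 ± 0.19. LOC100138359 (H2BC3), at chr23:31986742-31986801, had the widest range of the H2B probes: -2.80, -4.58, -5.63 and -4.84 against -3.16, -5.42, -5.15 and -5.55. Replicate 1 was the highest cow in both groups, and both of these arrays were on the first slide. Its difference was -0.36 ± 0.72, or 0.19 without 0 mM replicate 1. ENSBTAT00000036488 (H2BC26), on chromosome 7, was likewise highest in replicate 1 of each group, at -3.50 and -4.37, against -5.43 to -4.61 in the other cows.

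Of the third family, LOC617908 at chr5:56797938-56797997 read -2.34, -1.95, -2.61 and -2.37 against -3.61, -2.65, -3.04 and -2.63. The lowest 0 mM cow lay just above the highest 5 mM cow, and the difference was -0.67 ± 0.26 (unadjusted p = 0.0312, adjusted p = 0.913). LOC526915 differed by -0.60 ± 0.29. HIST2H2BE (H2BC21), whose printed probe lies at chr3:22264035-22264093, read -0.21, 0.54, -0.29 and -0.31 in the 0 mM cows and -0.95, -0.47, -0.80 and -0.37 in the 5 mM cows. The groups did not overlap, though the highest 5 mM cow lay just below the lowest 0 mM cow, and the difference was -0.58 ± 0.24 (unadjusted p = 0.0406, adjusted p = 0.913). It was -0.38 without 0 mM replicate 2, the highest cow, and -0.28 within slide 3.

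The same gene gave other signs further along. A probe 0.498 kb on read 0.90, 0.78, 0.77 and 1.30 in the 0 mM cows and 1.82, 0.89, 1.80 and 0.91 in the 5 mM cows, a difference of 0.41 ± 0.27, or 0.26 without 5 mM replicate 1. A probe 1.996 kb on read 2.55, 2.69, 2.79 and 2.82 against 3.41, 2.60, 2.72 and 2.66, a difference of 0.14 ± 0.20, or -0.052 without that cow. In both the 5 mM mean rests on high values in replicate 1, joined by replicate 3 in the nearer probe, while the other cows overlap. Only the first of the 3 probes has a reading frame without a stop on the strand as printed. The difference between probes of the gene was not tested.

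HIST1H2BN (H2BC12) at chr23:31367430-31367489, 1 of the 3 probes with stem-loop letters, read -4.75, -4.17, -4.65 and -4.73 in the 0 mM cows and -6.34, -4.66, -6.14 and -4.94 in the 5 mM cows. Replicates 1 and 3 of 5 mM were low and replicate 2 lay inside the 0 mM range. The probe was well above background on 4 arrays of 0 mM and 2 of 5 mM, and differed by -0.95 ± 0.40 (unadjusted p = 0.0460, adjusted p = 0.913), or by -0.17 with normexp background correction. Within the slides it ran from -1.59 on the first to -0.25 on the second. HIST1H2BM (H2BC15), at the low end of the chromosome 23 cluster, differed by 0.28 ± 0.24 and 0.29 ± 0.26 in probes 81 bases apart. HIST1H2BD (H2BC5) differed by -0.31 ± 0.22 and -0.75 ± 0.40.

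**Figure D3:**
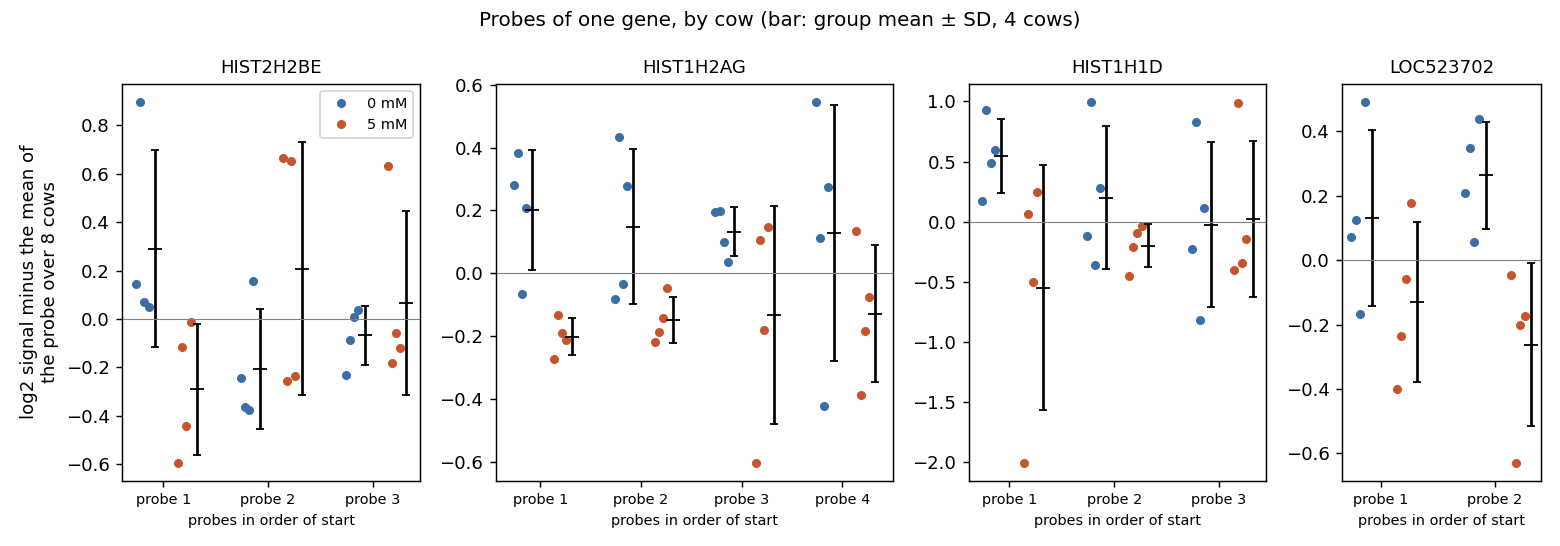
Points are cows (blue 0 mM, red 5 mM) for each probe of HIST2H2BE, HIST1H2AG, HIST1H1D and LOC523702 in order of start, as log2 signal minus the mean of the probe over the 8 cows, with bars of group mean ± SD, n = 4. The first HIST2H2BE probe is lower in the 5 mM cows and the others are not, while the 4 HIST1H2AG means are all lower in the 5 mM cows.

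The H3 probe, LOC518318 (H3-4) at chr7:2503373-2503432, read -5.98, -6.16, -5.62 and -5.57 in the 0 mM cows and -6.88, -4.45, -6.60 and -6.16 in the 5 mM cows. The 5 mM cows lay on both sides of the 0 mM range, with replicate 2 highest of all, and the difference was -0.19 ± 0.50 (unadjusted p = 0.717, adjusted p = 0.949). The sign turned with normexp background correction, with array weights and without 5 mM replicate 1 or 3, and it was positive within the second slide.

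By place in the genome (build HGSC Btau_3.1), 24 probes of 15 gene names lay on chromosome 23 between 31034180 and 32267187, a span of 1233 kb. Of the 18 tested there 15 were lower, with a median of -0.30. Among the 15 is HIST1H2AH, which passed the filter through the 0 mM cows alone. On chromosome 3 the 4 probes of HIST2H2AC and HIST2H2BE lay within 2.948 kb, with 1 of 4 lower and a median of 0.20. On chromosome 7 the 4 probes of HIST3H2A, ENSBTAT00000036488 and LOC518318 had 3 lower and a median of -0.10. The other 16 probes lay on 11 chromosomes; 12 of their 13 tested probes were lower, with a median of -0.41, and 10 of these lower probes belong to the sequence families.

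Averaged over the 39 tested probes, each centred on its mean, the 0 mM cows stood at 0.088, 0.38, -0.088 and 0.24 and the 5 mM cows at -0.25, -0.083, -0.24 and -0.044. The averages take HIST1H2AH at its measured signal, which was not well above background in any 5 mM cow. Averages without this probe are not given. The group means were 0.16 ± 0.20 and -0.16 ± 0.11 (SD, n = 4 each). The groups overlapped, since 0 mM replicate 3 lay below 2 of the 5 mM cows. The lowest of the 8 arrays was 5 mM replicate 1 in 23 of the 39 probes, 59.0%, beside 28.1% of all tested probes. The highest was 0 mM replicate 2 in 17 probes, 43.6%, beside 12.6% of all.

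Other genes of histone supply, taken at 1 probe a gene, had list medians closer to 0 than the clustered histones. The median of the latter at 1 probe for each gene name was -0.31. Single genes of the lists lay further from 0 than their medians. No gene passed the adjusted threshold in any of the lists that follow. Of 11 tested replacement histones 5 were lower, with a median of 0.075 that was -0.059 under quantile normalization. H1-10, a linker variant, differed by 0.30 ± 0.19 and H2AX, the variant phosphorylated at DNA breaks, by -0.21 ± 0.21, and without 5 mM replicate 1 by 0.20 and -0.063. All 8 tested genes of histone gene transcription had a higher mean after methylglyoxal, by a median of 0.14, or 0.065 without 5 mM replicate 1. They included CASP8AP2 (0.23 ± 0.16), a component of histone locus bodies, and POU2F1 (0.25 ± 0.19), the octamer factor of H2B promoters, which stood at 0.11 and 0.10 without that cow. Of 12 genes that form or process the histone mRNA 3′ end 4 were lower, with a median of 0.034. MIF4GD, a partner of SLBP in translation, differed by 0.43 ± 0.31 and CPSF3, the endonuclease, by 0.22 ± 0.17. MIF4GD stood at 0.13 without 5 mM replicate 1 and CPSF3 at 0.11 without 0 mM replicate 2. Of 18 histone chaperones 7 were lower, with a median of 0.022. SUPT16H of the FACT complex differed by 0.27 ± 0.15 and ASF1B, the proliferation-linked H3-H4 chaperone, by -0.74 ± 0.46. ASF1B ranged from -1.16 without 5 mM replicate 2 to -0.47 without 0 mM replicate 3, and was -0.10 with normexp background correction.

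Genes of S phase, when clustered histones are made, were lower in 14 of 22 with a median of -0.074. Among them CCNE2, a cyclin of S phase entry, differed by -0.50 ± 0.25 and MCM7, of the replicative helicase, by 0.23 ± 0.16. CCNE2 stood at -0.31 without 5 mM replicate 3 and at -0.23 with normexp. The S phase mean overlapped between groups, from -0.13 to 0.27 in the 0 mM cows and from -0.28 to 0.33 in the 5 mM cows. Genes of G2 and M phase were lower in 16 of 17, with a median of -0.90 that was -0.36 with normexp background correction. Without 5 mM replicate 2 that median was -1.45, and without 5 mM replicate 1 it was -0.57. ASPM, a spindle pole protein, differed by -1.85 ± 0.96 and KIF11, a spindle motor, by -1.39 ± 0.78, and neither reached an unadjusted p of 0.05. Both were dim: ASPM was well above background on 4 arrays of 0 mM and 1 of 5 mM, KIF11 on 3 and 1. With normexp they differed by -0.32 and -0.087, and ASPM by -2.78 without 5 mM replicate 2. The G2 and M mean ran from -0.53 to 1.17 in the 0 mM cows and from -1.34 to 1.15 in the 5 mM cows, with 5 mM replicate 2 near the top and the 0 mM low value in replicate 2, the cow with the highest histone mean.

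The means of leukocyte, epithelial and smooth muscle markers spanned more between cows than the histone mean did. Leukocyte markers were lower in 11 of 13, with a median of -0.86, or -0.33 with normexp background correction, -0.51 without 5 mM replicate 1 and -0.52 without 0 mM replicate 2. Their mean by cow did not overlap between groups: -0.026, 0.67, 0.40 and 0.45 against -0.72, -0.38, -0.30 and -0.11. MS4A1, the B cell surface antigen, was well above background on 4 arrays of 0 mM and 0 of 5 mM, so it was at least 2.93-fold lower, from measured means of -4.91 and -7.33 (adjusted p = 0.913). With normexp it differed by -0.63, smaller than this bound, which likewise holds only for the background subtraction used here. With MS4A1 at its bound the median of the list was again -0.86. Without this gene the leukocyte means did overlap, at -0.18, 0.54, 0.35 and 0.52 against -0.71, -0.27, -0.25 and 0.00054. LCP1, the leukocyte plastin, differed by -1.03 ± 0.28 (unadjusted p = 0.00599, adjusted p = 0.913). PTPRC and CD3D were the 2 markers of the list that were not lower, at 0.15 ± 0.15 and 0.056 ± 0.24. With or without MS4A1, as in the histone mean, 0 mM replicate 2 was the highest cow and 5 mM replicate 1 the lowest. This order was not particular to leukocytes. The epithelial mean had the same highest and lowest cows, at 0.86 and -3.38. In the smooth muscle mean they were reversed, at -1.66 in 0 mM replicate 2 and 2.69 in 5 mM replicate 1.

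Epithelial markers were lower in 10 of 10, with a median of -1.11 that was -0.072 without 5 mM replicate 1. KRT7 and KRT19, keratins of simple epithelia, differed by -1.35 ± 0.75 and -0.86 ± 0.56, or by -0.62 and -0.25 without that cow. All 11 smooth muscle markers had a higher 5 mM mean, with a median of 1.10, or 0.45 without that cow. Leaving out 0 mM replicate 2 gave a median of 0.68, whereas leaving out replicate 1 of 0 mM gave 1.74 and replicate 2 of 5 mM gave 1.73. PLN and SYNM differed by 1.45 ± 0.97 and 1.52 ± 1.05, or by 0.82 and 0.65 without 5 mM replicate 1. Of 8 stromal markers 3 were lower (median 0.067), with DPT at 1.59 ± 0.95 and PDGFRA at 0.65 ± 0.49, or 0.87 and 0.13 without 5 mM replicate 1. Of 4 endothelial markers 2 were lower (median -0.058), with TEK at -0.43 ± 0.25 and PECAM1 at 0.41 ± 0.24. TEK was -0.21 without 5 mM replicate 1 and PECAM1 0.23 without 5 mM replicate 3. Of 5 genes of uterine identity 3 were lower (median -0.053), with HAND2, a progesterone-responsive stromal factor, at -0.73 ± 0.31 (unadjusted p = 0.0463, adjusted p = 0.913) and the estrogen receptor ESR1 at 0.37 ± 0.21. HAND2 was -0.48 without 0 mM replicate 1, and with normexp these 2 genes were at -0.40 and 0.18. The part of leukocytes, epithelium, smooth muscle and dividing cells in the histone values was not tested.

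**Figure D4:**
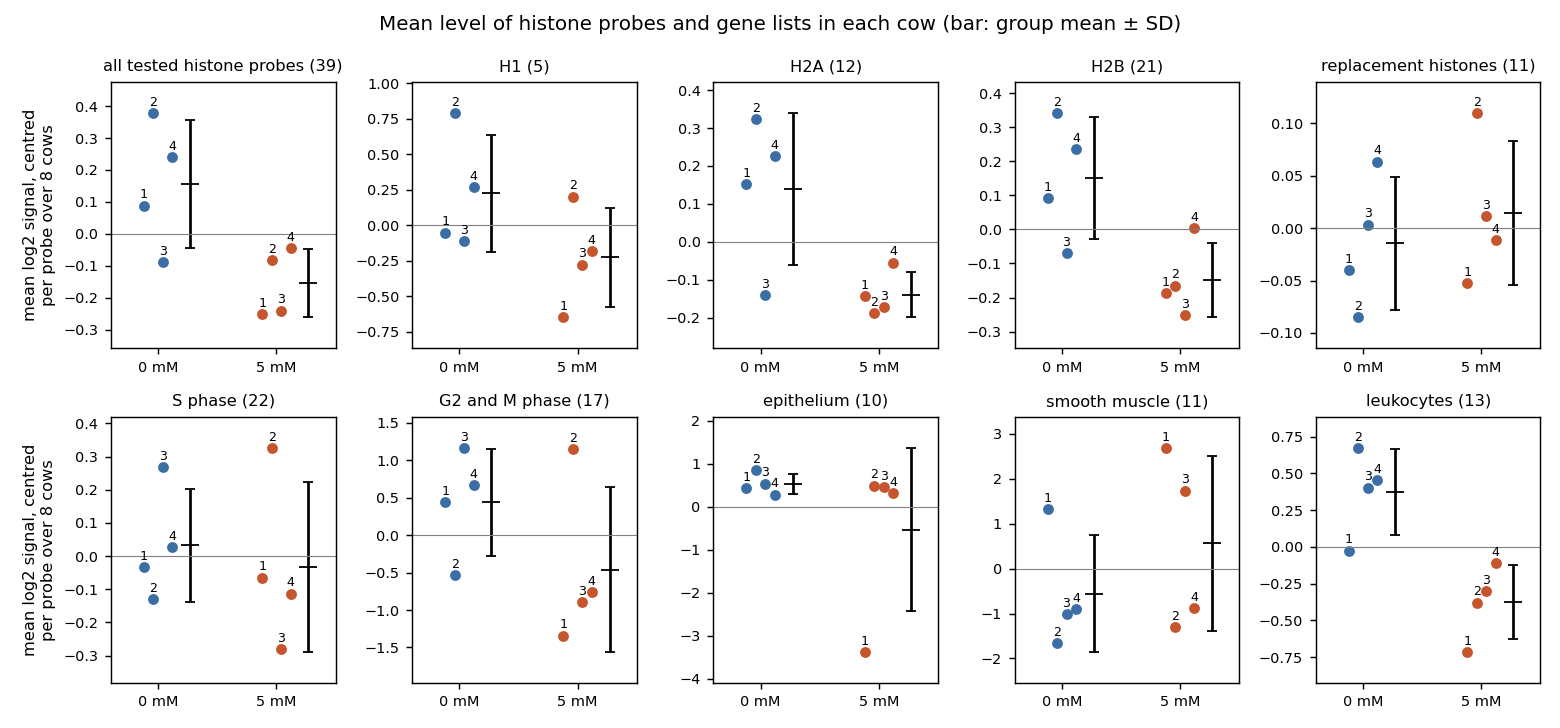
Each panel gives the mean log2 signal, centred per probe over the 8 cows, of the tested histone probes, 3 histone types or a gene list, with the number of probes in brackets; points are cows with their replicate number, and bars are group mean ± SD, n = 4. The leukocyte panel is the one without overlap between groups, which it has without MS4A1, the histone panels overlap, and in the epithelium panel 5 mM replicate 1 lies alone at -3.38. The panels of all histone probes and of H2A include HIST1H2AH at its measured signal, not well above background at 5 mM.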

How the data were processed

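The deposited values were spot intensities on a linear scale, made by Feature Extraction by subtracting background and spatial trends, per the file headers. Its version was 11.5.1.1 according to those headers, whereas the submitters' processing notes name 10.5.1.1. RNA was labelled with Cy3 by a Quick Amp reaction, per the labels' protocols. The deposited value table of the series holds log2 values, which correlated with the centred log2 intensities at r of at least 0.9995 across probes in each column, so that scale, centring and direction were found; the medians of its columns, in replicate order, were -0.016, -0.023, 0.00088 and -0.0062 at 0 mM, then 0.13, -0.0049, -0.011 and 0.013 at 5 mM.

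Control spots and outlier spots were left out, spots of a probe averaged, and the log2 of the 75th percentile of the array subtracted. Probes well above background on at least 4 of 8 arrays were tested (31108, with 461 values missing, none among histone probes) with limma 3.58.1 (lmFit and eBayes) under R 4.3.3; p-values were adjusted over all of them by Benjamini-Hochberg, at a threshold of 0.05. The test was also run on simulated data with independent normal noise for each probe. That run held no slide or tissue differences, and nothing here rests on it. For gene lists, the probe with the highest mean stood for a gene. The number of arrays limits the precision.

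The probes and lists were chosen with earlier results of these data known. Values by cow are given, in each histone type, for the 2 tested probes with the lowest p and the 1 with the widest range. They are also given for any probe at an unadjusted p under 0.05 or without overlap. The same holds for any probe well above background on all arrays of 1 group and none of the other. HIST1H2AH was to be named whatever its value. Of each list the 2 genes with the lowest p are named. Values beyond these were chosen after they were seen. Symbols were updated with RefSeq's ARS-UCD2.0 gene table, which gave 37 histone probes a current symbol. Probe sequences and coordinates are those in the deposited files; exon and UTR positions are not given because no genome of that build was used here. Alternatives were quantile and median scaling, normexp (offset 50), other filters, array weights, robust eBayes with a trend, the deposited table, slide and replicate blocks, within-slide values and omission of single cows. Both replicates 1 shared slide 1; 0 mM replicates 2 and 3 were on slide 2 beside 5 mM replicate 2, and the remaining arrays on slide 3.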

Additional observations from a re-analysis of the deposited data

Results flagged for a closer look

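In 78 checks of a histone probe within a group of 4 cows, 5 found 1 cow set apart from the other 3 by a gap that exceeded Dixon's critical value for the range of the group, where chance gives about 1 group in 20 (5%). HIST1H1C read -2.47 in 0 mM replicate 2, against -3.67 to -3.56 in the other 0 mM cows. HIST1H1E read -2.55 in 5 mM replicate 2, against -3.01 to -2.96. The HIST2H2BE probe that starts at 22264035 read 0.54 in 0 mM replicate 2, against -0.31 to -0.21, and its probe that starts at 22266031 read 3.41 in 5 mM replicate 1, against 2.60 to 2.72. LOC100138359 read -3.16 in 5 mM replicate 1, against -5.55 to -5.15 in the other 5 mM cows.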

How the results depend on the processing

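No probe passed the adjusted threshold under any of the 18 tested alternatives. The median difference of the histone probes stayed below 0 in all of these and within each slide, from -0.38 to -0.18. Without 1 cow it lay between -0.37 and -0.25, and the medians of H1, H2A and H2B between -0.58 and -0.24, -0.32 and -0.15, and -0.53 and -0.26. The H2A median was -0.38 within slide 3. With normexp background correction the H2B median was -0.18, 2 histone probes reached an unadjusted p under 0.05 (2 to 10 without 1 cow), and the medians of the 3′-end and leukocyte lists were 0.13 and -0.33. The leukocyte median was -0.52 on probes detected on all 8 arrays, fewer being tested, and -0.99 to -0.51 without 1 cow. For replacement histones it was -0.059 with quantile normalization, 0.0076 with array weights and -0.035 to 0.10 without 1 cow.

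LOC518318 turned to 0.11 with normexp, 0.035 with array weights and 1.44 within slide 2, and ran from -0.71 to 0.099 without 1 cow, being 0.0053 without 5 mM replicate 3. LOC100138359 ran from -0.91 to 0.19 without 1 cow, and HIST1H1E was 0.072 within slide 2. The cause of these changes was not tested. Replicate numbers were not taken as a pairing, since the labels do not say that they pair cows. Same-numbered deviations correlated at 0.40, 0.36, -0.30 and 0.31 for replicates 1 to 4. These values cannot decide on a pairing, because most same-numbered arrays also share a slide. Replicates 1, 2 and 4 share a slide between the groups and replicates 3 do not. With the replicate block 9 histone probes reached the unadjusted limit, beside 3.93% of all probes, the 6 of the unblocked test among them. Under this block the median of all 39 tested histone probes was -0.30, and none passed the adjusted threshold. In the unblocked test, counting 1 probe a sequence family, chosen after seeing the data, left 4 of 30 at the unadjusted limit. In that test 1.91% of all tested probes reached it. The median standard error of the histone probes was 0.25.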
